A study of Mus musculus with 12 samples.

Results

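ETS transcription factors that act in the nucleus at the end of the RAS-ERK pathway were followed in MC38, a mouse colorectal cancer cell line, after nintedanib, X-rays or both. The 9 genes were Etv1, Etv4 and Etv5, which form the PEA3 subfamily, and Ets1, Ets2, Elk1, Elk3, Elk4 and Etv6. They were taken by gene name from the 54532 genes of the deposited table, and were chosen with earlier results of these data known. The 12 RNA libraries fell into 4 groups of 3, and the experiment was independently repeated, per the labels. Nintedanib cultures received the drug at 3 µM for 24 hours. Radiation cultures received 8 Gy of X-rays, with 24 hours given for the treatment. Combination cultures received both. Control cultures received neither, and no time was given for them. All groups were the same cell line, and nintedanib inhibits the FGF, PDGF and VEGF receptor tyrosine kinases.

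Receptor tyrosine kinases switch on RAS, which drives the kinases RAF, MEK and ERK in turn. ERK reaches ETS factors in different ways. It phosphorylates the ternary complex factors Elk1, Elk3 and Elk4, which sit with serum response factor at immediate early genes, and it phosphorylates Ets1 and Ets2 within their regulatory regions. The PEA3 factors are also regulated through transcription: the repressor Capicua holds their genes down and is itself inactivated when ERK is active. Their mRNA levels are for this reason widely read as an output of the pathway. ETS proteins recognise DNA around a GGAA core, and Etv6 acts mainly as a repressor.

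Libraries held 16103528 to 18196615 fragments as recovered from the deposited values. Levels are FPKM, fragment counts divided by gene model length and by depth, so genes are compared per base of gene model. For the 9 members the model length equalled the exon bases of the gene in GENCODE M21, from 3104 for Etv4 to 13296 for Etv1. Orders and sums of FPKM across genes depend on that length. Nintedanib library 3 stood apart: its level of the predicted gene Gm23935 was 609.9 FPKM, against 12846 to 32372 FPKM in the other 11 libraries, and its FPKM summed over all genes was 268411, against 275834 to 315358. Of 7 epithelial markers, the E-cadherin gene Cdh1 was at 4.12 to 8.73 FPKM, while Epcam was at 0 in all 12 libraries and the keratin gene Krt18 reached at most 0.0838 FPKM. The mesenchymal filament gene Vim was at 498 to 618 FPKM. The leukocyte gene Ptprc and the endothelial receptor gene Kdr reached at most 0.0292 and 0.0135 FPKM. Of the leukocyte markers Cd3e was at 0 in all libraries, and the list's summed level was almost all Cd68, a gene of lysosomal membranes, at 13.6 to 14.4 FPKM with nintedanib, 4.30 to 5.43 with radiation, 16.2 to 19.5 with the combination and 3.55 to 4.60 in control. Its part in the ETS results was not tested. Summed levels of the 4 mesenchymal markers were 571 to 615, 593 to 680, 583 to 650 and 611 to 678 FPKM in the same order of groups, and those of the 4 endothelial markers reached at most 2.40 FPKM. Summed levels of the 7 epithelial markers were 5.04 to 6.05 FPKM with nintedanib, 5.52 to 6.18 with radiation, 8.43 to 9.16 with the combination and 4.30 to 5.01 in control. Cdh1, the 1 epithelial marker high enough to be tested, rose by 0.29 on the log2(FPKM + 1) scale after radiation (adjusted p = 0.0286), by 0.76 after the combination (adjusted p = 1.84e-05), by 0.47 with the combination against radiation (adjusted p = 0.000874) and by 0.55 with the combination against nintedanib (adjusted p = 0.00339, limma). After nintedanib its difference of 0.20 did not pass (adjusted p = 0.0563). Its part in the ETS results was not tested either.

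After nintedanib, Etv5 and Etv4 had the largest falls of the 8 tested members, Ets2 fell as well, and Elk1 and Elk3 rose by small amounts. Of the 8 genes expressed highly enough to be tested, 2 rose and 3 fell against control at an adjusted p under 0.05 (limma), where 19.7% of all 13012 genes tested rose and 22% fell (41.6% in either direction). The median log2 fold change of the 8 was -0.18, against -0.02 over all genes tested. In bulk RNA, fewer cells of a kind and less RNA per cell cannot be told apart.

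Etv5 (ENSMUSG00000013089; GRCm38 chromosome 16, 22381309 to 22439719, minus strand) encodes a PEA3 activator. It was at 1.63, 1.92 and 1.68 FPKM in nintedanib libraries, against 16.1, 16.1 and 15.5 FPKM in control libraries. Every nintedanib library lay far below every control library. The control mean was 9.12 times the nintedanib mean. Etv5 fell by 2.62 on the log2(FPKM + 1) scale (SE 0.0932, adjusted p = 6.96e-08, limma). That scale understates changes of genes near 1 FPKM, and on recovered fragments, tested with voom, Etv5 fell by 3.13 (log2).

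RefSeq places Etv5 starts at 2 sites on GRCm38.p6, 22439570 and 22438368. The site at 22438368 lies in an intron of the GENCODE M21 gene model, 1023 bases from the nearest exon start. Capicua is known to bind octamers, searched here on both strands as TGAATGAA, TGAATGGA, TCAATGAA and TCAATGGA. None of these 4 was in any of the 11 windows from 250 bases before to 50 after the RefSeq starts of 7 members, and 3.84% of all 32851 such windows held at least 1. The set of windows at hand held none for Etv4 or Ets1, so these genes were not searched. The heptamer TGAATGG, the first 7 letters of one of those octamers, was looked for after the sequence had been read. It occurred 3 times before the intronic Etv5 start, beginning 242, 198 and 130 bases upstream. At least 1 copy was in 3.59% of all windows. This Etv5 window was the only 1 of the 32851 with 3, but the heptamer was chosen from this sequence, so that count tests nothing. The window at the other Etv5 start, 22439570, held no copy. The 200 bases that hold the copies (chr16:22438419-22438618, minus strand, 5′ to 3′) are shown because Etv5 changed most among the members. Capitals mark TGAATGG or its reverse complement. A match is a description of letters and not of binding.
Etv5 upstream of the intronic start: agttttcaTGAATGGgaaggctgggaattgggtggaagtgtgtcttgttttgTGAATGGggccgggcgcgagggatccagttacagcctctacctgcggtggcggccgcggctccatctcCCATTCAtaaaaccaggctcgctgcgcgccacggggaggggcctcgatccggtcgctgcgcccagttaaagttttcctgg

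Etv4 (ENSMUSG00000017724; chromosome 11, 101769742 to 101785371, minus strand), the PEA3 founder gene, was at 1.46, 1.52 and 1.02 FPKM in nintedanib libraries, against 10.3, 11.97 and 10.2 FPKM in control libraries. All 3 nintedanib libraries were low, and the groups did not overlap. The control mean was 8.11 times the nintedanib mean, and Etv4 fell by 2.34 on the log2 scale (SE 0.092, adjusted p = 6.96e-08). Etv1 (ENSMUSG00000004151, chromosome 12, 38779380 to 38870484, plus strand) was the PEA3 gene with the lowest FPKM. It was at 0.392, 0.530 and 0.678 FPKM with nintedanib, against 0.951, 0.713 and 0.692 FPKM in control libraries. The highest nintedanib library lay just under the lowest control library. Etv1 reached 1 FPKM in too few libraries for the test over all genes and rested on 71 to 294 fragments per library. Without a filter on low values its log2 difference was -0.22 (adjusted p = 0.246), and on recovered fragments it was -0.51 (adjusted p = 0.0729, limma with voom).

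Ets2 (ENSMUSG00000022895, chromosome 16, 95702075 to 95721051, plus strand), an ERK-phosphorylated activator, had the highest mean FPKM of the 9 in control cells. It was at 11.5, 11.7 and 10.8 FPKM in nintedanib libraries, against 26.8, 26.7 and 24.5 FPKM in control libraries. The groups stood well apart, and Ets2 fell by 1.13 on the log2 scale (SE 0.0815, adjusted p = 1.92e-06). Its relative Ets1 (ENSMUSG00000032035; chromosome 9, 32636221 to 32757820, plus strand) was at 11.8, 10.9 and 11.7 FPKM with nintedanib, against 12.1, 11.2 and 11.2 FPKM in control libraries. These groups overlapped, and the log2 difference had a 95% interval of -0.13 to 0.13 (adjusted p = 0.997). A change of the size seen in Ets2 lay outside that interval.

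Among the ternary complex factors, Elk3 (ENSMUSG00000008398; chromosome 10, 93247414 to 93311135, minus strand), which represses until phosphorylated, was at 21.5, 23.0 and 19.8 FPKM with nintedanib, against 17.0, 17.8 and 18.5 FPKM in control libraries. Elk3 rose by 0.26 on the log2 scale (SE 0.0674, adjusted p = 0.0101), with no overlap between the groups. Elk1 (ENSMUSG00000009406; chromosome X, 20933395 to 20950608, minus strand) was at 6.67, 7.22 and 5.92 FPKM with nintedanib, against 5.23, 5.07 and 5.01 FPKM in control libraries. It rose by 0.31 (SE 0.101, adjusted p = 0.0274), and this call was lost without nintedanib library 1 (0.31, adjusted p = 0.0601) or 2 (0.26, adjusted p = 0.102) and without any of the control libraries (0.30 to 0.33, adjusted p from 0.0531 to 0.0738). Elk4 (ENSMUSG00000026436; chromosome 1, 132007607 to 132032612, plus strand) was at 10.98, 13.3 and 10.8 FPKM with nintedanib, against 15.1, 12.8 and 13.6 FPKM in control libraries. These overlapped, and the difference of -0.23 did not pass (adjusted p = 0.0602). It passed without nintedanib library 2 (-0.32, adjusted p = 0.0134) or control library 2 (-0.28, adjusted p = 0.047). Etv6 (ENSMUSG00000030199; chromosome 6, 134035700 to 134270158, plus strand) was at 7.19, 6.73 and 6.42 FPKM with nintedanib, against 8.05, 6.71 and 7.72 FPKM in control libraries, an overlapping pair of groups (log2 difference -0.12, adjusted p = 0.227).

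Of the 7 members with a promoter window, only Elk4 had the long ETS site CCGGAAGT, 68 bases before 1 of its 3 RefSeq starts. Elk4 had 3 of the 11 windows, and 3.89% of all windows held that octamer on either strand. The 200 bases upstream that include it (chr1:132007370-132007569, GRCm38.p6, plus strand) are shown with the site in capitals, as an example of the sequence that ETS proteins recognise.
Elk4 upstream of its most distal start: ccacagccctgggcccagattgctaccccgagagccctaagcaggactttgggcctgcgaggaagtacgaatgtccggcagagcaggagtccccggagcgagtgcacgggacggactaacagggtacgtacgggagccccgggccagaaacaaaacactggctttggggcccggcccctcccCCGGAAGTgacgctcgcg

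**Figure D1:**
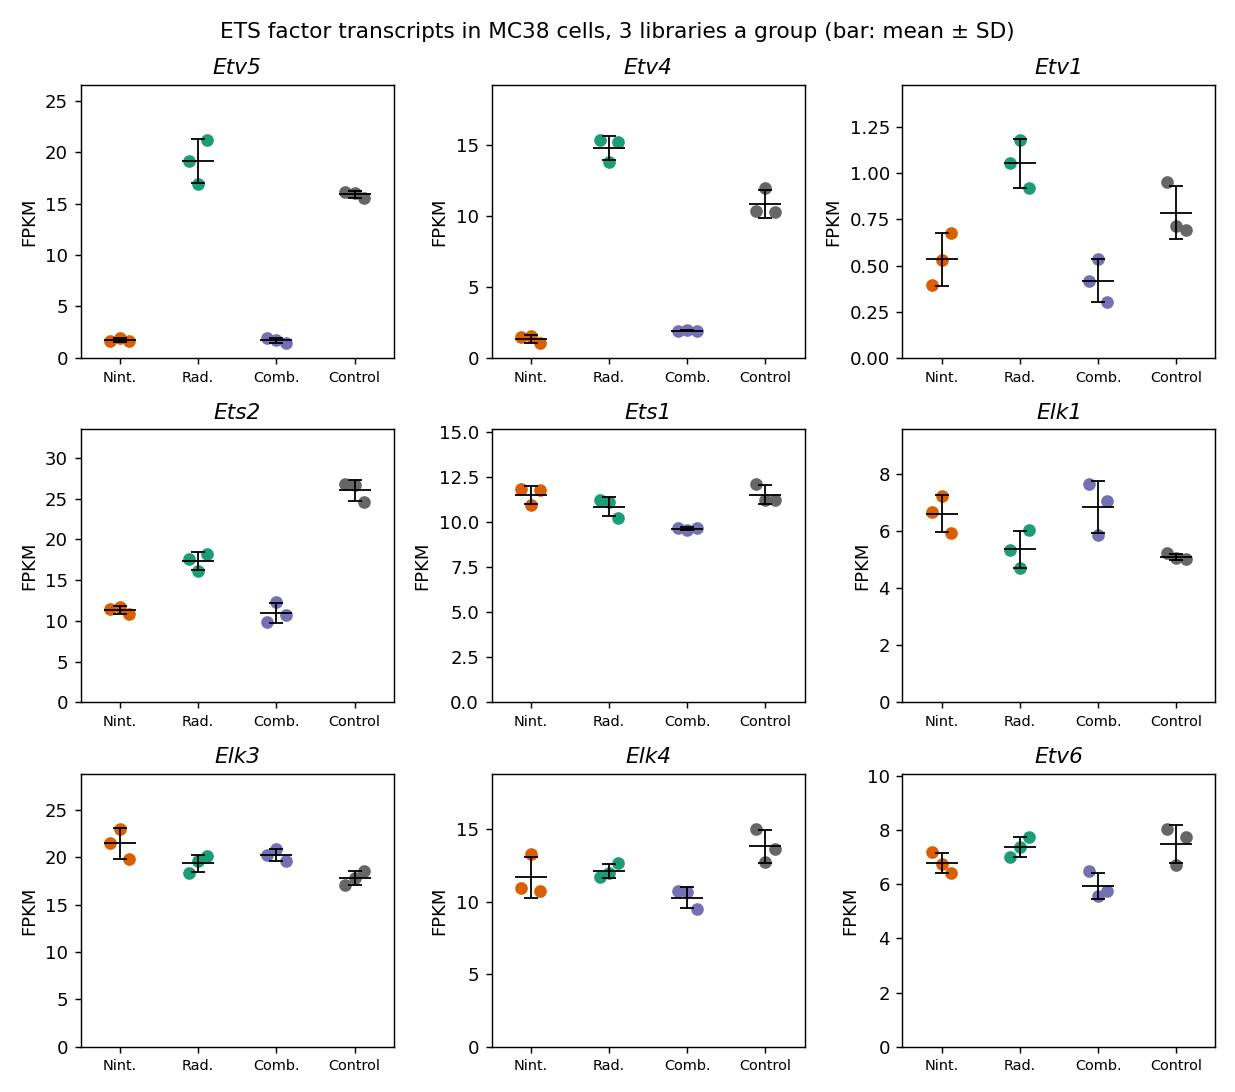
FPKM of each of the 9 ETS genes (y axis, from 0, own scale per panel) in the nintedanib, radiation, combination and control groups; points are the 3 libraries of a group, and bars are the mean ± SD. Etv5 and Etv4 sit under 2 FPKM in all 6 libraries that received nintedanib, while Ets1 lies between 9.55 and 12.1 FPKM throughout.

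Radiation moved Etv4 and Ets2 in opposite directions. Of the 8 tested, Etv4 rose and Ets2 fell, where 8.04% of all genes tested rose and 9.9% fell (17.9% in either direction). At 2 of 8, the count is near that background. The median log2 fold change was 0.02 over the 8 and -0.04 over all genes tested. The radiation and nintedanib comparisons use the same control libraries.

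Etv4 was at 15.4, 13.8 and 15.2 FPKM in radiation libraries, all above the control libraries, which reached at most 11.97 FPKM. It rose by 0.42 on the log2 scale (SE 0.092, adjusted p = 0.0115). Without control library 3 the rise was 0.38 and did not pass (adjusted p = 0.0503). Etv5 was at 19.2, 16.9 and 21.2 FPKM with radiation, again above every control library, but its difference of 0.25 did not pass (95% interval 0.04 to 0.45, adjusted p = 0.0921). On recovered fragments it was 0.32 (adjusted p = 0.0228), and with FPKM rescaled to a common sum it was 0.35 (adjusted p = 0.0363). Etv1 was at 1.06, 1.18 and 0.921 FPKM with radiation, a range that overlapped the control libraries (0.20, adjusted p = 0.373 without a filter).

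Ets2 was at 17.6, 16.1 and 18.2 FPKM in radiation libraries, well below the control libraries, and fell by 0.56 on the log2 scale (SE 0.0815, adjusted p = 0.00141). The other 5 tested genes differed by -0.17 to 0.11 and none passed. Of these, Elk4 was at 11.7, 11.99 and 12.7 FPKM with radiation, just below its control libraries (-0.17, adjusted p = 0.206), and Ets1 at 11.2, 11.1 and 10.2 FPKM overlapped them. Elk1 at 5.35, 4.72 and 6.02 FPKM, Elk3 at 18.3, 19.6 and 20.1 FPKM and Etv6 at 7.02, 7.38 and 7.75 FPKM with radiation also overlapped their control libraries.

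The combination lowered 6 of the 8 tested genes against control and raised Elk1; 22.3% of all genes tested rose and 25% fell (47.2% in either direction). The median log2 fold change was -0.34 over the 8 and -0.03 over all genes tested. The largest falls among the 8 were again in Etv5 and Etv4. Etv5 was at 1.98, 1.69 and 1.42 FPKM and Etv4 at 1.92, 1.93 and 1.91 FPKM in combination libraries. These values lie among or close to those of nintedanib alone and far from control. Etv5 fell by 2.65 (adjusted p = 5.9e-08) and Etv4 by 2.02 (adjusted p = 1.32e-07) on the log2 scale against control. Ets2, at 9.87, 12.4 and 10.7 FPKM, fell by 1.18 (adjusted p = 1.19e-06).

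Falls of smaller size were seen in Ets1, Elk4 and Etv6, for which neither treatment alone passed the test. Ets1 was at 9.65, 9.55 and 9.68 FPKM with the combination, below all 9 libraries of the other groups, and fell by 0.23 against control (SE 0.0586, adjusted p = 0.00656). Elk4, at 10.8, 10.6 and 9.48 FPKM, fell by 0.39 against control (adjusted p = 0.00376). Etv6, at 6.47, 5.57 and 5.73 FPKM, fell by 0.29 against control (adjusted p = 0.00935). For none of the 3 did the interaction of nintedanib and radiation pass. With FPKM rescaled to a common sum the Ets1 and Etv6 differences from control were -0.17 (adjusted p = 0.0987) and -0.23 (adjusted p = 0.0582). Elk1 was at 7.65, 5.86 and 7.04 FPKM and rose by 0.36 (adjusted p = 0.0131), or 0.28 without combination library 1 (adjusted p = 0.0536). Elk3, at 20.2, 20.9 and 19.6 FPKM, was 0.18 higher than control (adjusted p = 0.0504), and passed in 6 of 22 other settings. It was 0.25 with voom (adjusted p = 0.0136), 0.24 with rescaling (adjusted p = 0.0191) and 0.22 with median centring (adjusted p = 0.0225), and it also passed at 5 FPKM or more (adjusted p = 0.0454) and without nintedanib library 2 or 3 in the shared fit (adjusted p = 0.0416 and 0.0318).

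Etv1 was at 0.418, 0.535 and 0.302 FPKM with the combination, below every control library. Its difference from control was -0.33 without a filter (adjusted p = 0.0569) and -0.86 on recovered fragments (adjusted p = 0.00665), a setting chosen after the data were seen in which 21.1% of genes fell. Against radiation alone Etv1 fell by 0.54 without a filter (adjusted p = 0.00897) and by 1.35 on recovered fragments (adjusted p = 0.000237), where 6.44% and 17.3% of genes fell.

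Within irradiated cells, adding nintedanib lowered 4 of the 8 tested genes and raised 1, where 17.2% of all genes tested rose and 17.3% fell (34.4% in either direction). The falls in combination against radiation libraries were 2.90 for Etv5 (adjusted p = 4.44e-08), 2.43 for Etv4 (adjusted p = 1.27e-07), 0.62 for Ets2 (adjusted p = 0.0002) and 0.28 for Etv6 (adjusted p = 0.018). The Etv6 fall did not pass without radiation library 3 (-0.25, adjusted p = 0.0648), combination library 2 (-0.24, adjusted p = 0.0682) or combination library 3 (-0.26, adjusted p = 0.0579). Elk1 rose by 0.30 (adjusted p = 0.039) with overlapping groups, and lost the call without any of the control libraries, radiation library 1 or 2, or combination library 1 or 3 (0.23 to 0.30, adjusted p from 0.051 to 0.148).

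Within nintedanib-treated cells, adding radiation changed 1 of the 8 tested genes, where 3.17% of all genes tested rose and 2.37% fell (5.55% in either direction). Ets1 fell by 0.23 (adjusted p = 0.0424), and this call held in 5 of 22 other settings; it was lost without any 1 library except radiation library 3, with adjusted p up to 0.123. Etv4 was higher in all 3 combination libraries than in all 3 nintedanib libraries, with means of 1.92 ± 0.0102 and 1.34 ± 0.275 FPKM (SD, n = 3 each), but the difference of 0.33 did not pass (adjusted p = 0.0625). It passed in 3 of 22 other settings by limma. These were pseudocount 0.1 (0.51, adjusted p = 0.0438), median centring (0.35, adjusted p = 0.0462) and protein-coding genes only (0.33, adjusted p = 0.0453).

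Whether the effect of nintedanib differed between irradiated and unirradiated cells was tested as an interaction. None of the 8 genes passed; 1 of 13012 genes did (0.00769%) by limma, 1685 genes were at an unadjusted p under 0.05, and limma with voom called 2. Ets2 had the largest value among the 8, with a nintedanib effect 0.51 less negative in irradiated cells (95% interval 0.26 to 0.77, adjusted p = 0.174). The interaction was -0.27 for Etv5 (95% interval -0.56 to 0.02) and -0.09 for Etv4 (95% interval -0.37 to 0.20). 

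**Figure D2:**
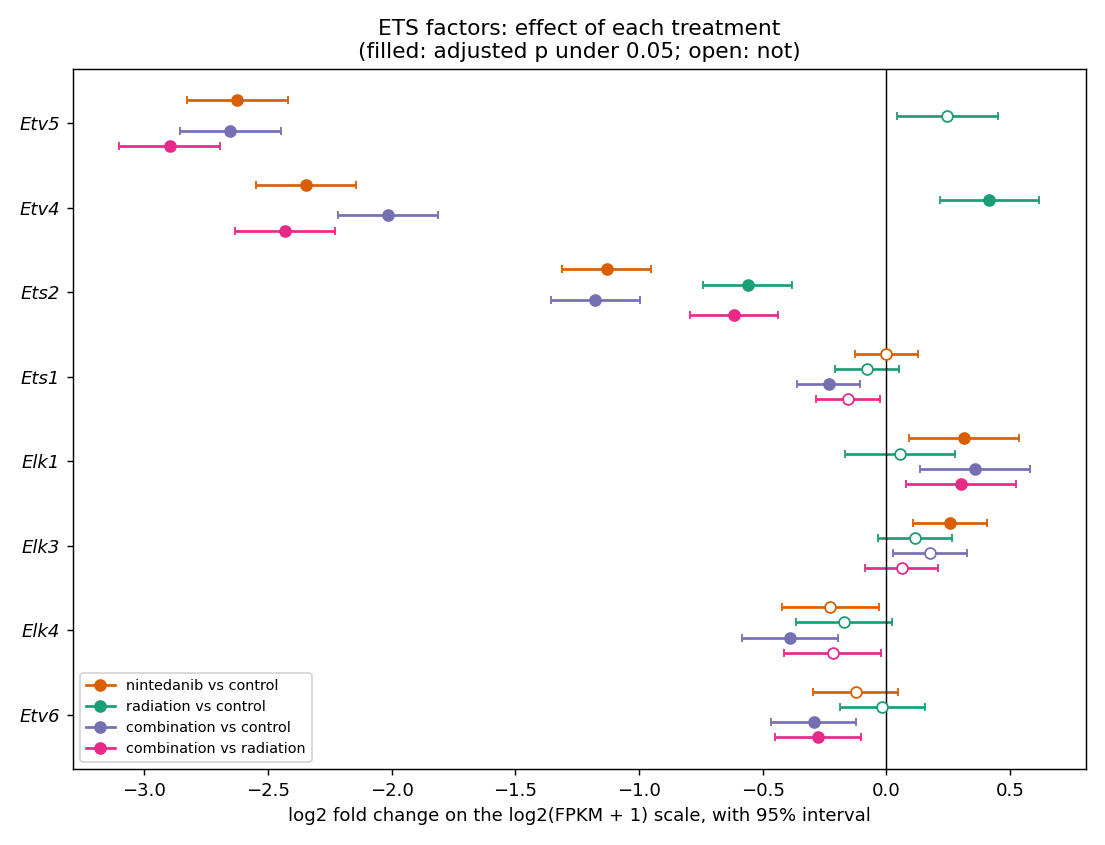
Log2 fold change on the log2(FPKM + 1) scale (x axis) with 95% interval for the 8 tested ETS genes (rows) in 4 comparisons by colour; filled points passed an adjusted p of 0.05 in limma, open points did not. Etv5 and Etv4 lie between -2.90 and -2.02 in the 3 comparisons that involve nintedanib, and Ets2 is left of 0 in all 4.

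The PEA3 genes differed from the other 6 members in how their share of the summed FPKM changed between groups. Summed over Etv1, Etv4 and Etv5, the level was 3.61 ± 0.320 FPKM with nintedanib, 34.9 ± 2.76 with radiation, 4.04 ± 0.358 with the combination and 27.5 ± 1.17 in control (SD, n = 3 each). Summed over the other 6, it was 69.3 ± 3.71, 72.3 ± 2.305, 63.9 ± 1.48 and 81.7 ± 2.22 FPKM in the same order. The PEA3 share of the 9-gene sum was thus 4.76 to 5.18% in nintedanib libraries, 31.1 to 33.3% in radiation libraries, 5.52 to 6.26% in combination libraries and 24.5 to 26.4% in control libraries. No group overlapped another in this share. Etv1 reached at most 1.18 FPKM in any library, so Etv4 and Etv5 carried most of the PEA3 sum. Relative to control, the Etv1 mean was 0.68 with nintedanib and 0.53 with the combination, against 0.44 and 0.42 for Ets2.

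The ratio of Etv4 to Ets2 within a library set apart the opposite movements of these genes. On the log2 scale of FPKM it was -0.23 ± 0.0346 with radiation and -1.26 ± 0.111 in control (SD, n = 3 each), a difference of 1.04. For Etv5 over Ets2 it was 0.14 ± 0.0746 with radiation and -0.71 ± 0.0411 in control, a difference of 0.85. With nintedanib the ratios were -3.10 ± 0.261 for Etv4 and -2.70 ± 0.111 for Etv5. Each of these comparisons with control gave p = 0.1 in a two-sided exact permutation test, the smallest that 3 against 3 libraries allow. The pairs were chosen with earlier results of these data known, so this p-value adds no separate support. The ratios do not depend on how a library was scaled.

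The order of levels in FPKM changed accordingly. In control cells Ets2 came first, followed by Elk3, Etv5, Elk4, Ets1, Etv4, Etv6, Elk1 and Etv1, and only Ets1 and Etv4 overlapped as neighbours. In irradiated cells Elk3, Etv5 and Ets2 came first; the range of Etv5 overlapped those of both others, while Elk3 lay above Ets2 without overlap. Etv4 followed above Elk4. With nintedanib Elk3 led alone, Elk4, Ets1 and Ets2 overlapped behind it, Etv6 and Elk1 overlapped next, and Etv5, Etv4 and Etv1 closed the order without overlap. With the combination the last 3 places were again held by the PEA3 genes, with Etv4 and Etv5 overlapping.

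**Figure D3:**
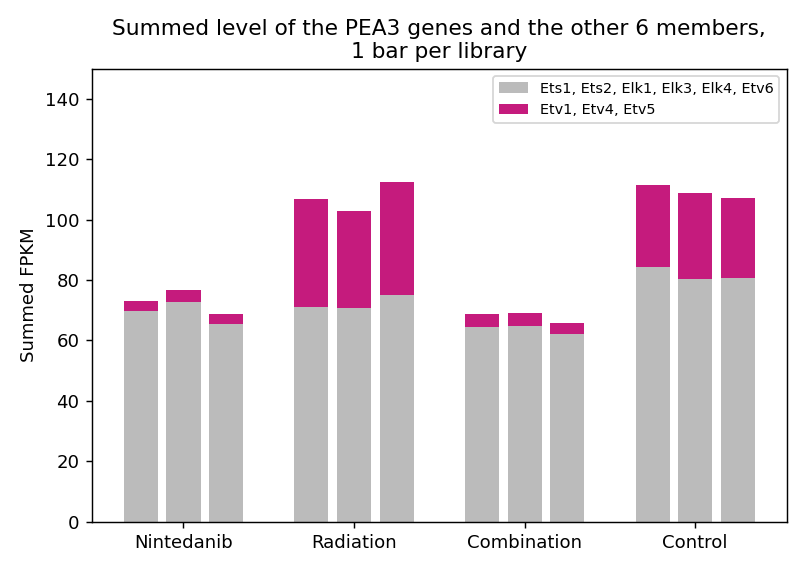
Summed FPKM (y axis, from 0) of Etv1, Etv4 and Etv5 (coloured) on top of the other 6 ETS genes (grey), 1 bar per library, in the nintedanib, radiation, combination and control groups. The coloured part is at most 6.26% of a bar in nintedanib and combination libraries and at least 24.5% in radiation and control libraries.

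The deposited table marks 26 genes as ETS family, and the 17 outside the 9 were mostly low or absent. Of these, 11 were not tested, 3 of which (Elf5, Erg and Spic) were listed at 0 in all 12 libraries, and only Fli1, a regulator of blood and vessel genes, reached 0.5 FPKM, with a highest value of 0.933. Of the 6 tested, Elf1 rose after nintedanib, and Elf2, Elf4 and Gabpa fell, where 19.7% of all genes tested rose and 22% fell. Elf1 averaged 13.1 ± 1.20 FPKM with nintedanib and 9.26 ± 0.660 FPKM in control (SD, n = 3 each; log2 fold change 0.45, adjusted p = 0.00168). Gabpa, the DNA-binding subunit of a regulator of mitochondrial genes, averaged 12.4 ± 1.91 FPKM with the combination and 19.2 ± 2.16 FPKM in control (-0.59, adjusted p = 0.000804), and 14.9 ± 0.368 FPKM with nintedanib (-0.34, adjusted p = 0.024). The Elf2 and Elf4 falls after nintedanib were 0.27 (adjusted p = 0.00625) and 0.22 (adjusted p = 0.0493). The Elf4 call held in 5 of 22 other settings. The Gabpa call after nintedanib held in 16 of 22, and was lost without control library 1 or 3 or nintedanib library 1 or 2 (-0.34 to -0.29, adjusted p from 0.0552 to 0.0867). None of the 6 passed with radiation alone. The repressors Erf and Etv3 passed in none of the 5 pairwise comparisons. Over the 6 the median was -0.21 after nintedanib, and no falls of the size seen in Etv4, Etv5 or Ets2 were among them, the most negative value being -0.34.

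Other genes known to report ERK activity were taken from a list of 16, of which 14 were tested. After nintedanib 11 fell and 2 rose (median -0.88), after radiation 7 fell and none rose (median -0.38), and after the combination 11 fell and 2 rose (median -0.89). Over all genes tested, 22% fell and 19.7% rose after nintedanib, 9.9% and 8.04% after radiation, and 25% and 22.3% after the combination. The medians over all genes tested were -0.02, -0.04 and -0.03. The ERK phosphatase gene Dusp6 fell by 1.71 after nintedanib (adjusted p = 8.6e-07) and by 0.58 after radiation (adjusted p = 0.00494). Fosl1, an AP-1 subunit gene, fell by 2.59 after nintedanib (adjusted p = 4.25e-06) and differed by -0.55 after radiation without passing (adjusted p = 0.0936). The feedback inhibitor gene Spry4 fell by 1.77 after nintedanib (adjusted p = 1.2e-06) and differed by -0.11 after radiation (adjusted p = 0.551). The cyclin D1 gene Ccnd1 fell by 1.11 after nintedanib (adjusted p = 2.23e-06). The 2 that rose after nintedanib were the phosphatase gene Dusp4 (0.70, adjusted p = 0.00107) and the interleukin-33 receptor gene Il1rl1 (0.44, adjusted p = 0.0169), whose call was lost without control library 1 (0.39, adjusted p = 0.0572) or 2 (0.41, adjusted p = 0.0527). No gene of this list rose after radiation, the comparison in which Etv4 rose.

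Immediate early genes that ternary complex factors and serum response factor control numbered 11, of which 8 were tested. After nintedanib 5 fell and none rose, after radiation 4 fell and none rose, and after the combination 5 fell and none rose. In the same order, 22%, 9.9% and 25% of all genes tested fell, and 19.7%, 8.04% and 22.3% rose. Egr1, a zinc finger factor gene, averaged 0.675 ± 0.0928 FPKM with nintedanib, 3.47 ± 0.507 with radiation, 0.758 ± 0.0250 with the combination and 8.79 ± 0.684 in control (SD, n = 3 each). Ier2 fell by 1.70 after nintedanib (adjusted p = 7.04e-06) and by 0.80 after radiation (adjusted p = 0.00512). The AP-1 gene Junb fell by 1.46 after nintedanib (adjusted p = 2.47e-05), and its combination level of 31.1 ± 4.94 FPKM was above the 18.3 ± 3.99 FPKM of nintedanib alone (SD, n = 3 each; 0.75, adjusted p = 0.0191). Without combination library 2 that difference was 0.62 (adjusted p = 0.0768). Egr3, a relative of Egr1, fell by 1.08 after nintedanib (adjusted p = 0.000228), at 0.0805 ± 0.0577 FPKM with nintedanib and 1.29 ± 0.280 FPKM in control (SD, n = 3 each).

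**Figure D4:**
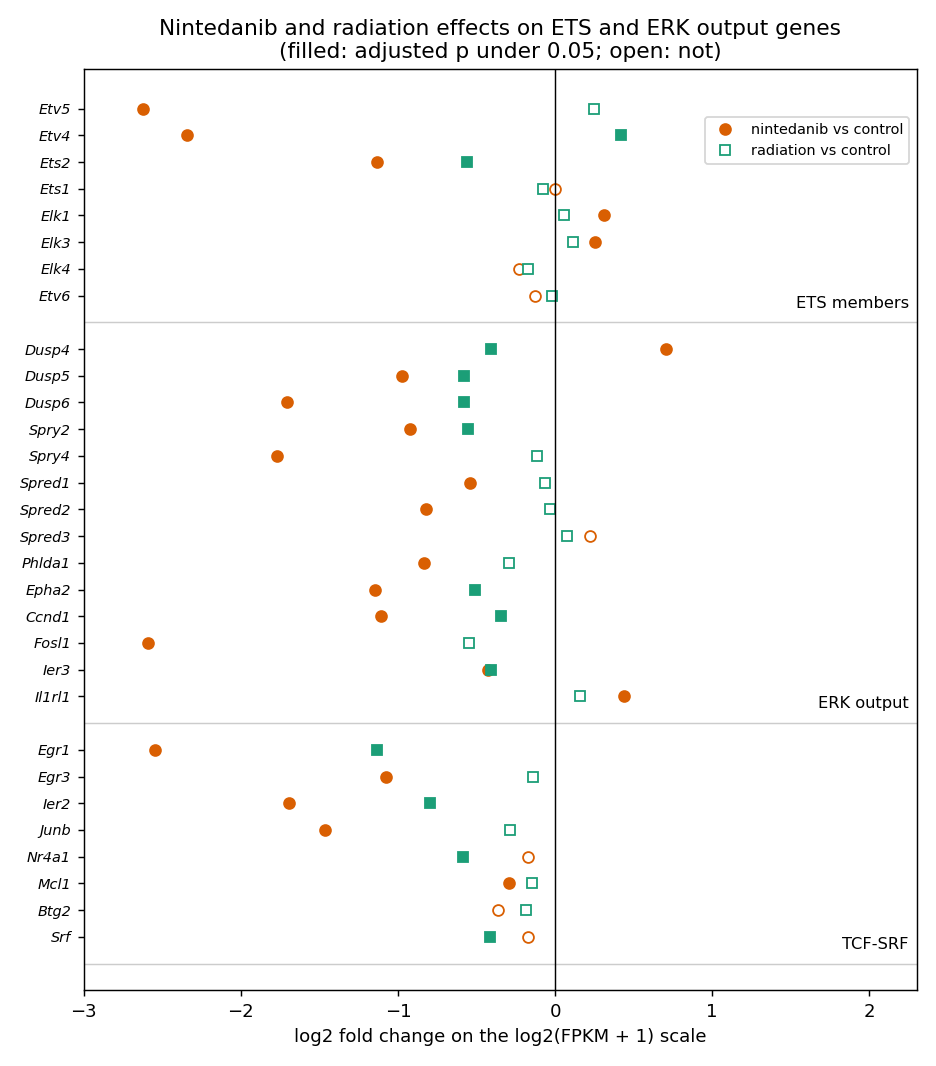
Log2 fold change on the log2(FPKM + 1) scale (x axis) after nintedanib (circles) and after radiation (squares), both against the same control libraries, for the tested ETS genes, ERK output genes and genes of ternary complex factors with serum response factor (rows); filled symbols passed an adjusted p of 0.05 in limma. Etv4 at 0.42 is the only filled square right of 0, while Dusp4, Il1rl1, Elk1 and Elk3 are the filled circles right of 0.

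Transcripts of the cascade itself and of ETS cofactors were called at shares mostly near those of all genes. Of 27 RAS-ERK cascade genes, all tested, 4 rose and 6 fell after nintedanib, 2 rose and 2 fell after radiation, and 5 rose and 11 fell after the combination. Over all genes tested, 19.7% rose and 22% fell after nintedanib, 8.04% and 9.9% after radiation, and 22.3% and 25% after the combination, so the counts for each treatment alone are near the background. Among the kinases that ERK activates, Mknk2 rose by 1.19 (adjusted p = 3.79e-06) and Rps6ka1 by 0.68 (adjusted p = 0.00024) after nintedanib, while Rps6ka2 fell by 0.97 (adjusted p = 2.72e-06) and Mknk1 by 0.38 (adjusted p = 0.00209). Of 16 cofactors and regulators, 5 rose and 4 fell after nintedanib, and after radiation none rose and 3 fell, counts that are also near the shares of all genes. Det1 and Cop1, parts of a ubiquitin ligase known to degrade PEA3 proteins, fell by 0.87 (adjusted p = 1.28e-05) and 0.35 (adjusted p = 0.00369) after nintedanib. The serum response factor coactivator genes Mkl1 and Mkl2 rose by 0.40 (adjusted p = 0.00256) and 0.44 (adjusted p = 0.00249). The Capicua gene Cic averaged 24.99 ± 3.08 FPKM with nintedanib, 16.3 ± 1.64 with radiation, 20.4 ± 2.01 with the combination and 19.9 ± 0.689 in control (SD, n = 3 each). It rose by 0.31 after nintedanib (adjusted p = 0.0292), a call lost without nintedanib library 1 or 2 or any of the control libraries (0.23 to 0.33, adjusted p from 0.055 to 0.101). Its difference of -0.28 after radiation did not pass (adjusted p = 0.0857). The receptor genes Fgfr1, Pdgfra and Pdgfrb, whose products nintedanib inhibits, all rose after nintedanib, by 0.41, 0.89 and 0.58 (adjusted p at most 0.000478).

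Genes reported elsewhere as PEA3 targets did not move in 1 direction. Of 14, 8 were tested. Of these, 4 rose and 3 fell after nintedanib (median 0.03), where 19.7% of all genes tested rose and 22% fell (median -0.02). The matrix protease genes Mmp14 and Mmp2 rose by 1.27 (adjusted p = 3.09e-07) and 0.98 (adjusted p = 4.43e-06), and the urokinase gene Plau rose by 1.67 (adjusted p = 1.44e-06). Spp1, the osteopontin gene, averaged 38.6 ± 6.53 FPKM with nintedanib, 179 ± 25.9 with radiation, 96.8 ± 3.18 with the combination and 127 ± 5.73 in control (SD, n = 3 each). It fell by 1.70 after nintedanib (adjusted p = 1.67e-06) and among the 8 tested it alone had its highest mean after radiation and its lowest after nintedanib, the order also seen in Etv4.

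The patterns most like a member were sought among tested genes with a mean of at least 5 FPKM in at least 1 group. They were found by the root mean square distance between log2(FPKM + 1) profiles over the 12 libraries, each centred on its own mean. For Etv5 they were Sh2d6 (0.207), Angptl6 (0.234), Etv4 (0.256), Cdsn (0.334) and Car6 (0.394). For Etv4 they were Sh2d6 (0.247), Soat2 (0.251), Etv5 (0.256), Snhg12 (0.281) and Gm49539 (0.314). Sh2d6, which headed both lists, averaged 1.09, 12.9, 1.52 and 12.98 FPKM with nintedanib, radiation, the combination and in control. Etv4 and Etv5 thus stood in each other's list. Their transcripts share no identical run longer than 23 bases in GENCODE M21, the longest shared by any pair of the 9. For Ets2 the nearest were Zfp598 (0.0814), Insyn1 (0.0884) and Glis2 (0.0932), and for Etv1 they were Tcf12, Sp3, 5730455P16Rik, Fnbp1l and Usp37.

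Exons of Etv1, Etv4, Etv5, Ets1 and Ets2 overlap no other gene in GENCODE M21. Elk3 shares 316 exon bases with Cdk17 and Elk4 shares 84 with Mfsd4a, both on the opposite strand, and Elk1 shares 76 with Uxt on the same strand. Etv6 shares 135 with the antisense gene Gm17089, which reached at most 0.157 FPKM, and Elk4 shares 104 with Gm29103 on the same strand, listed at 0 in all libraries. The strand setting of the counting is not given in the sources used here, so reads in those stretches cannot be assigned with certainty.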

How the data were processed

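RNA of MC38 cells was sequenced in 12 libraries; per the labels' protocols, libraries came from total RNA with a SMARTER mRNA kit. The authors deposited FPKM values for 54532 genes, per the file headers. The submitters' processing notes name the build GRCm38, also called mm10. No aligner, counter, annotation release, strand setting or library scaling is given in the sources used here. FPKM times gene model length fell on whole multiples of 1 step for 100% of nonzero values (tolerance 0.01 of a step), which gave the fragments per library. Totals cover counting error only, since fragments carry no molecular identifiers. The depth implied by the FPKM values was 0.970 to 1.03 of these totals, so the authors' scaling differed between libraries. It was 0.970 to 0.982 in control libraries and 1.00 to 1.03 in treated libraries, so the scaling went with treatment. A lower implied depth gives higher FPKM, which bears on small differences from control. Voom used the fragment totals as depth. Replicates of a group differed by more than sampling noise in all 12 pairs (chi-square per gene 4.30 to 30.2).

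Tests used limma 3.58.1 in R 4.3.3 (empirical Bayes with intensity trend, two-sided) on log2(FPKM + 1), with all 12 libraries in 1 fit, 8 residual degrees of freedom, the 13012 genes at 1 FPKM or more in at least 3 libraries, and Benjamini-Hochberg adjustment over those genes at 0.05. The fit was also run on simulated fragments, but the outcome is not reported here and lends no support to the calls. Whole fragments were also tested with voom as an alternative; for Etv1 a minimum of 20 fragments in 3 libraries was added after the data were seen. Other alternatives were pseudocount 0.1, other filters, rescaling, median centring, limma without trend, a replicate block and leaving out each library.

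The 9 genes, the lists and the tests were chosen with earlier results of these data known. All members are named; of each list up to 4 genes with the smallest adjusted p after nintedanib, and other ETS genes that passed anywhere. Cic, Dusp4 and Il1rl1 were named after their values were seen. One leukocyte marker is not reported here. Promoter windows are from RefSeq (GRCm38.p6), and the set of windows at hand covered 7 of the 9 genes. Exon overlaps and shared sequence were read from GENCODE M21.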

Additional observations from a re-analysis of the deposited data

Results flagged for a closer look

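Egr1, an immediate early gene driven by ternary complex factors, was the 1 gene among the 13012 tested whose nintedanib effect differed between irradiated and unirradiated cells. With nintedanib it fell by 1.34 in irradiated cells and fell by 2.55 in unirradiated cells on the log2(FPKM + 1) scale, an interaction of 1.21 (95% interval 0.91 to 1.51, adjusted p = 0.0281, limma). The mean after radiation alone was 3.47 ± 0.507 FPKM, against 8.79 ± 0.684 FPKM in control (SD, n = 3 each), while both groups with nintedanib were under 1 FPKM. The call held in 9 of 21 other settings, with values of 1.10 to 1.48 and adjusted p of 0.00402 to 0.213. It was lost without any of the control libraries, nintedanib library 2 or 3, radiation library 1 or 2, or combination library 2 or 3. Values in those fits were up to 1.27. The call was also lost in limma with pseudocount 0.1 (1.48, adjusted p = 0.0638), with voom (1.47, adjusted p = 0.0663) and with a replicate block (1.21, adjusted p = 0.176).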

How the results depend on the processing

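The falls of Etv5, Etv4 and Ets2 against control with nintedanib and with the combination, and against radiation with the combination, passed in all 22 other settings, as did the fall of Ets2 with radiation. Leaving out 1 library at a time gave 4 to 5 members called for nintedanib against control, 1 to 2 for radiation, 6 to 8 for the combination, 3 to 6 for the combination against radiation and 0 to 1 for the combination against nintedanib. Of the 12911 to 12955 genes then tested, 4483 to 5453 were called for nintedanib, 5201 to 6448 for the combination and 3539 to 4754 for the combination against radiation. For radiation 1145 to 2612 were called (1145 without radiation library 2, against 2334 with all). For the combination against nintedanib it was 263 to 652 (263 without combination library 2, against 722 with all), and for the interaction 0 to 5. For the combination against nintedanib, 2 members passed with a pseudocount of 0.1 (695 genes called) or protein-coding genes only (868 genes). The count was 0 with rescaling to a common sum (532 genes), without trend (716 genes), with only the libraries compared (83 genes), or with voom (898 genes). The interaction called 0 genes with a pseudocount of 0.1, 12 with no filter, 3 at 5 FPKM or more, 4 with rescaling, 4 with protein-coding genes and 2 with voom. Replicate numbers did not pair the libraries: same-numbered libraries correlated at -0.298 to 0.202 in their deviations from group means (18 pairs, 3 over 0.1). With the replicate as a block, 5, 2 and 7 members passed for nintedanib, radiation and the combination against control. Members passing were 4 for the combination against radiation and 0 for the combination against nintedanib and the interaction. Genes called, in the same order, were 5091, 1795, 5785, 4074, 444 and 0 of 13012.

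Values that changed sign had not passed in either setting. Ets1 after nintedanib was 0.088 with rescaling, 0.019 with median centring, 0.061 with voom and -0.020 to 0.033 with 1 library left out. After radiation, Ets1 was 0.022 with rescaling; Etv6 was 0.079 with rescaling, 0.015 with median centring, 0.044 with voom and -0.085 to 0.030 with 1 library left out, a range that was -0.018 to 0.13 for Elk1. For the combination against nintedanib that range was -0.10 to 0.048 for Etv5, -0.13 to 0.020 for Ets2 and -0.031 to 0.14 for Elk1. The Etv4 interaction was 0.065 at pseudocount 0.1 and 0.044 with voom. The cause was not tested. Rescaling to a common sum moved the median interaction to -0.10, against 0.01, and called 3055 genes higher and 2035 lower after nintedanib, against 2559 and 2860, and 1335 higher and 578 lower after radiation, against 1046 and 1288. Etv4 in nintedanib libraries rested on as few as 58 fragments and Etv1 on 71 to 294, which limits what can be said of their differences at the low end.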
